A study of Mus musculus with 4 samples.

Results

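The genes described here encode the machinery of synaptic vesicles and of regulated exocytosis, the calcium-triggered release of stored vesicles. They were chosen by gene symbol and number 50 among the 52636 gene identifiers counted in each library, and all 50 symbols were paired with an identifier. RNA-seq was performed on tdTomato+ cells sorted from embryonic mouse kidneys at about E12.5 to E12.75, 48 h after tamoxifen was started, in 2 Control and 2 *Eya1*cKO libraries of 5000 cells each. Control embryos carried *Eya1* CreER and the *R26-tdTomato* reporter, and *Eya1*cKO embryos carried *Eya1* fl/fl in addition. Every embryo in both groups therefore had the CreER allele, the reporter and tamoxifen, and the strain background was mixed (C57BL/6J with 129/Sv). The sorted cells were those in which CreER, under the control of *Eya1*, had switched on the reporter, and their kidneys were pooled by genotype before sorting. The libraries of a genotype were separate portions of such sorted cells, so the tests below measure the spread between these portions, which may be technical.

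Regulated exocytosis uses a common fusion machine. SNARE proteins on the vesicle and on the plasma membrane zip together, NSF and its SNAP adaptors take the spent complexes apart, Rab3 and Rab27 bring vesicles to the membrane, Unc13 and CAPS proteins prime them, and synaptotagmins and Doc2 proteins sense calcium. Neurons use these proteins for synaptic vesicles, and endocrine cells such as adrenal chromaffin cells use many of the same ones for dense-core granules. Several of them, such as Snap23 and Vamp3, also serve secretion and membrane traffic in cells of most other tissues.

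Reads counted on genes ranged from 17457452 to 37999342 per library and were fewer in both *Eya1*cKO libraries, where 3 counts, taken as the limit of detection, equal 0.133 and 0.171 CPM (counts scaled to library size) against 0.0859 and 0.0801 in Control. These limits cover counting error only. Reads on no gene (13.9% and 12.9% in Control, 22.7% and 20.9% in *Eya1*cKO) and unaligned reads (6.32% and 6.69% against 12.9% and 12.7%) were more frequent in *Eya1*cKO, and 26486 and 27091 genes had a count in Control against 21455 and 20538 in *Eya1*cKO. *Eya1*, the deleted gene, fell from 6612 and 6420 counts in the Control libraries to 377 and 219 in those of *Eya1*cKO. The defining nephron progenitor markers were present in Control, with a summed level of 551 and 521 CPM, and stood at 61.2 and 36.9 CPM in *Eya1*cKO, with 5 of 5 called lower (called: an adjusted p under 0.05 in edgeR's quasi-likelihood test). *Eya1* itself is among these 5, and the sum of the other 4, all called lower, was 362 and 349.6 CPM in Control against 44.6 and 24.5 CPM in *Eya1*cKO. Markers of cells that use regulated exocytosis moved with genotype as well. For 10 sympathoadrenal and chromaffin markers the sum was 7.65 and 13.1 CPM in Control and 556 and 597 CPM in *Eya1*cKO, 9 of them called higher, and only *Pnmt*, which makes adrenaline, had overlapping libraries. Of 8 pan-neuronal markers 4 were called higher and 1, *Elavl4*, was called lower, with a sum of 52.9 and 54.3 CPM in Control and of 107 and 113 CPM in *Eya1*cKO. The 6 adrenal cortex markers, all called higher, summed to 18.7 and 11.4 CPM against 677 and 653 CPM. Podocyte markers (5 of 5) and endothelial markers (4 of 4) were called higher too, from 475 and 489 to 2152 and 2172 CPM and from 443 and 454 to 748 and 824 CPM. Of 5 ureteric bud markers 2 were called lower (154 and 157 against 83.9 and 52.0 CPM in sum). Of 5 Schwann cell and neural crest markers 3 could be tested and 1, *Sox10*, was called higher, with sums of 27.5 and 26.0 CPM against 32.1 and 28.6 CPM. None of the 5 blood markers had enough counts to be tested, and 3 of them were at 0 in all libraries. The part that these cell types and the differences in depth and unassigned reads have in the results below was not tested. In such bulk samples, fewer cells of a type and less RNA per cell cannot be told apart.

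Nearly all of the vesicle release genes were detected in the sorted kidney cells of both genotypes, and more of them had a higher than a lower level in *Eya1*cKO. With edgeR's quasi-likelihood test, adjusted over all 19041 genes tested, 4 genes passed at an adjusted p under 0.05, and each was higher in *Eya1*cKO: *Ptprn*, *Rab3c*, *Nsf* and *Syt13*. Of the 50 genes, 47 passed the filter on low counts and were tested. The exceptions were *Rab3a* and *Rims1*, which had 0 counts in each of the 4 libraries, and *Rph3a*. The 4 calls are 8.51% of the genes tested, against 9.56% of all genes tested in either direction, so the share called was near the background. For higher levels alone the background was 5.15%, and for lower levels, where none of these genes was called, it was 4.41%. At an unadjusted p under 0.05 there were 22 genes, 20 higher and 2 lower (*Napb* and *Doc2a*), which is 46.8% of those tested against 28.8% of all genes. The log2 fold change, given throughout as *Eya1*cKO over Control, was positive in 35 and negative in 12 of the 47 genes, with a median of 0.70 against 0.02 over all genes tested. Of the 47, 43 passed the filter on their Control libraries alone, whereas *Cplx1*, *Ptprn2*, *Rab3c* and *Snap25* needed an *Eya1*cKO library to pass it. Whether these 4 were tested at all thus depended on the group in which they were higher. The *Eya1*cKO libraries both lay above the Control libraries for 26 of the genes tested (55.3%, against 25.3% of all genes) and both below them for 5 (10.6%, against 30.0%). Summed over the 50 genes, the level was 823 and 821 CPM in Control and 1071 and 1056 CPM in *Eya1*cKO.

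**Figure D1:**
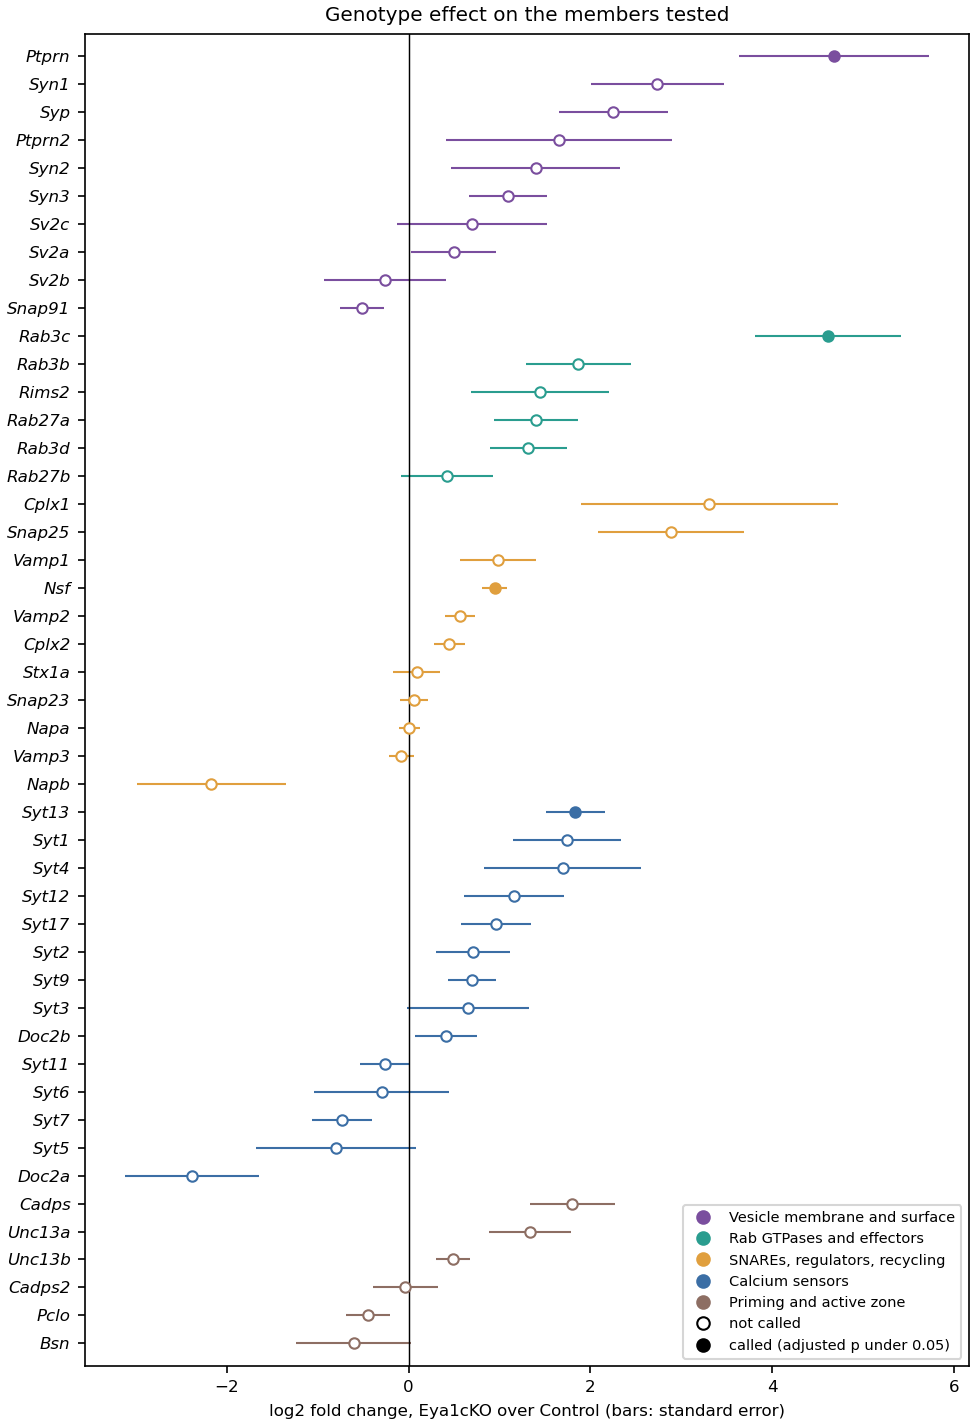
Log2 fold change of each of the 47 genes tested, *Eya1*cKO over Control (horizontal axis), with bars of 1 standard error, coloured by role; filled points mark the 4 genes called at an adjusted p under 0.05 (*Ptprn*, *Rab3c*, *Nsf*, *Syt13*). The bar of *Nsf* is narrow and those of *Cplx1* and *Ptprn2* are wide, and *Doc2a* and *Napb*, neither of them called, lie farthest to the left.

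How many genes were called depended on which libraries were compared. All 4 calls remained when either *Eya1*cKO library was left out, and the number of calls then rose to 27 (56.2%) without *Eya1*cKO 1 and to 23 (48.9%) without *Eya1*cKO 2. Calls over all genes rose in the same fits, to 33.5% and 35.3% of the genes tested. Without *Eya1*cKO 1, 20 of the 27 were higher and 7 were lower, where 18.7% of all genes were called higher and 14.8% lower. The 7 were *Napb* (log2 fold change -4.52), *Syt5* (-3.50), *Doc2a* (-1.99), *Bsn* (-1.71), *Syt7* (-1.62), *Snap91* (-0.84) and *Pclo* (-0.63). Without *Eya1*cKO 2, 21 of the 23 were higher and 2 were lower, *Doc2a* (-2.81) and *Napb* (-1.49), against 19.8% and 15.5% of all genes. None remained without Control 1 or without Control 2, when 23 genes in all were called in each case. In these fits the lone library of a genotype is taken to vary like the other genotype. The Control libraries were closer to each other than the *Eya1*cKO libraries were: the median absolute log2 ratio between the libraries of a genotype was 0.25 in Control and 0.60 in *Eya1*cKO for the genes tested here, and 0.18 and 0.55 for all genes. The difference between the *Eya1*cKO libraries was more than 2-fold for 15 of the 47 genes (31.9%, against 33.4% of all genes) and between the Control libraries for 5 (10.6%, against 11.2%). In *Eya1*cKO 2, 29 of the 47 were lower than in *Eya1*cKO 1 (61.7%, against 50.2% of all genes). For 17 of the 47 genes, leaving out 1 library moved the fold change by more than 1.5 times. These were *Ptprn*, *Ptprn2*, *Rab3c*, *Cplx1*, *Snap25*, *Syn1*, *Napb* and *Syt7*, whose values are given here or beside their counts below, *Bsn* and *Syt5* (-0.12 and -0.09 without *Eya1*cKO 2), *Sv2b* (-1.59 without *Eya1*cKO 1), *Syt4* (0.47 without *Eya1*cKO 1), *Syt1* (0.99 without *Eya1*cKO 2), and *Rims2*, *Sv2a*, *Sv2c* and *Syn2*. For 7 genes outside the 4 calls, the log2 fold change turned negative and moved by more than its SE (standard error) when an *Eya1*cKO library was left out. Without *Eya1*cKO 1 these were *Rims2* (-0.31), *Sv2a* (-0.51), *Sv2c* (-0.59) and *Napa* (-0.12), and without *Eya1*cKO 2 they were *Syn2* (-0.01), *Doc2b* (-0.09) and *Stx1a* (-0.22). Of these, *Rims2* and *Sv2a* were among the genes called higher without *Eya1*cKO 2, and *Syn2* and *Doc2b* among those called higher without *Eya1*cKO 1, so their direction rests on which *Eya1*cKO library is used. With at least 10 counts required in every library, 9 of 43 genes were called (20.9%, against 15.5% of all genes), the 4 above, *Syn1*, *Syp*, *Snap25* and *Cadps* higher and *Doc2a* lower. DESeq2's Wald test called 14 of 48 genes (29.2%), against 15.7% of all genes in that test. Of these, *Doc2a* was lower and 13 were higher, namely the 4 above with *Syn1*, *Syp*, *Snap25*, *Cadps*, *Rab3b*, *Rab3d*, *Syt1*, *Vamp2* and *Rph3a*.

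**Figure D2:**
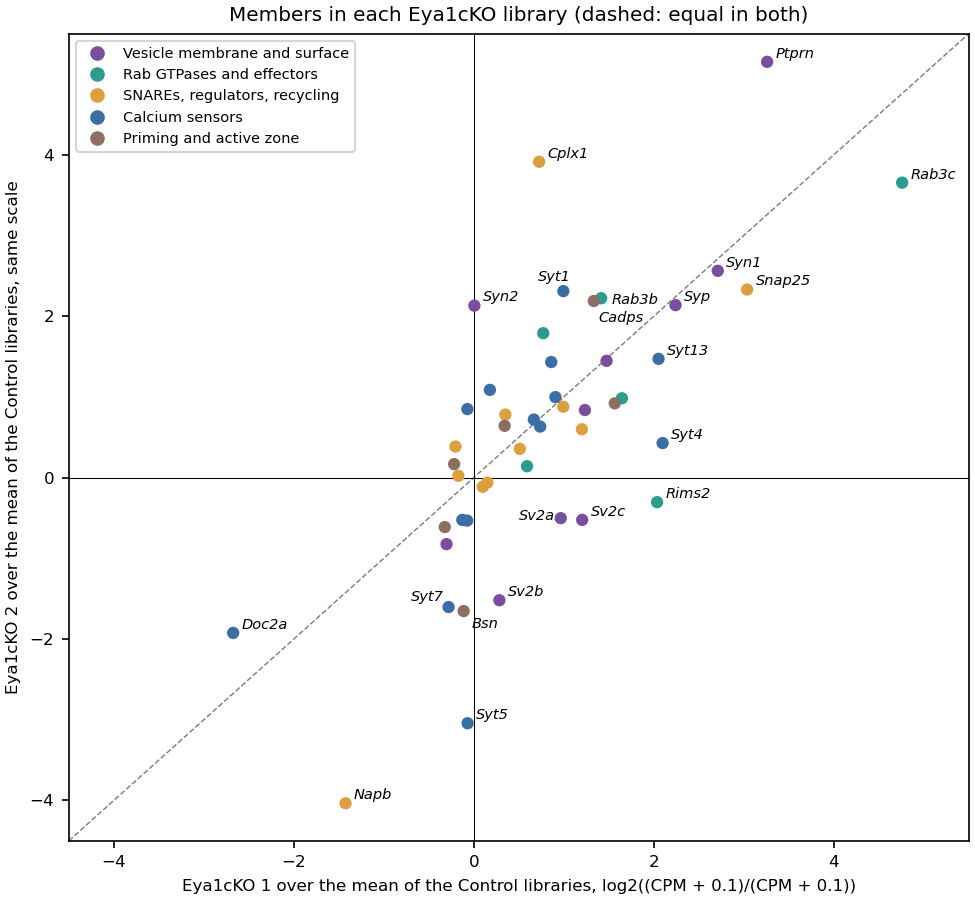
Level of each of the 47 genes tested in *Eya1*cKO 1 (horizontal axis) and *Eya1*cKO 2 (vertical axis) relative to the mean of the Control libraries, as log2 ratios of CPM + 0.1, coloured by role; the dashed line marks equal levels in both. *Syp* and *Syn1* lie near the line and *Rab3c* and *Ptprn* are high in both libraries, while *Cplx1* and *Syn2* lie farther above Control in *Eya1*cKO 2 and *Rims2* and *Syt4* in *Eya1*cKO 1.

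Since the study examined motifs of the repressor REST, which silences many neuronal genes outside neurons, the promoters of these genes were searched for its recognition element, RE1. RefSeq promoter windows (GRCm38.p6) were found for 36 of the 50 genes, 49 windows in all. The core TCAGCACCNNGGACAG, in which N is any base, was matched on both strands with at most 2 mismatches over its 14 scored letters, in the 250 bases before the gene start. It occurred in 3 of the 49 windows (6.12%) and in 126 of the 32851 windows of all genes (0.384%). This search with mismatches was added after the data were seen, on genes chosen with earlier results known, so the contrast is descriptive only. The search planned beforehand was for the left part alone. The left part alone, TCAGCACC, is part of the core and so overlaps it. It was found without mismatch in 4 of the 49 whole windows of 300 bases (8.16%) against 1.65% of all windows. Within the 250 bases before the start it was in 2 of them, those of *Syn1* and *Napa* (4.08% against 1.32%). The shorter right part, GGACAG, was in 13 of the 49 (26.5%) against 18.7% of all. The matched promoters are those of *Syn1*, *Rph3a* and *Syt2*, printed here from 5′ to 3′ on the strand of the gene, with the matched bases in capitals. In *Syn1* (chrX:20921074-20921168, minus strand, 1 mismatch) the match ended 215 bases before the start. In *Rph3a* (chr5:121009555-121009690, minus strand, 1 mismatch) it lay on the opposite strand and ended 76 bases before the start of 1 of the 3 windows of this gene. In *Syt2* (chr1:134646429-134646564, plus strand, 2 mismatches) it ended 107 bases before the start of 1 of its windows, and another came no closer than 4 mismatches.
Syn1: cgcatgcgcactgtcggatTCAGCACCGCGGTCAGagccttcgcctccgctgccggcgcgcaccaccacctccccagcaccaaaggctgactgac
Rph3a: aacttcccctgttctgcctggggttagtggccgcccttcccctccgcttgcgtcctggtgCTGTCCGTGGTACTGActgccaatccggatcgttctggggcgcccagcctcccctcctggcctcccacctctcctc
Syt2: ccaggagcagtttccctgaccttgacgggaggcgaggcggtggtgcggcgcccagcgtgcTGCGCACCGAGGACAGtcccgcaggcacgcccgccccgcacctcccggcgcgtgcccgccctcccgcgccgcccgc
*Syn1* and *Syt2* had their *Eya1*cKO libraries above those of Control and were not among the 4 calls, and *Rph3a* was above the limit of detection in *Eya1*cKO 2 alone. Of the 4 genes called, *Nsf*, *Rab3c* and *Ptprn* have windows in the table, and none came closer to the core than 5 mismatches within these windows. Introns and more distant regions were not searched. By ChIP-seq of embryonic kidneys, the study reported Eya1 at REST elements in introns of *Ptprn* and *Nsf*. It also reported Eya1 and Six2 at REST sequences in the promoter region of *Rph3a*. A match is a description of the sequence, and REST binding was not measured here.

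Among the proteins of the vesicle membrane and surface, 10 genes were tested and 1 was called (10%, near the 9.56% of all genes). *Ptprn* (chr1:75247027-75264502, minus strand), which encodes IA-2, a membrane protein of dense-core granules, had 14 and 16 counts in Control against 109 and 319 in *Eya1*cKO (libraries 1 and 2 of each, in that order here and below). The level rose from 0.414 ± 0.0187 to 11.5 ± 9.45 CPM (mean ± SD, n = 2 libraries, as for all means below), with a log2 fold change of 4.68 (SE 1.05, adjusted p = 0.0311 in edgeR). The *Eya1*cKO libraries were both above Control, and they differed from each other by 3.77-fold. The log2 fold change was 3.51 without *Eya1*cKO 2 and 5.43 without *Eya1*cKO 1. The adjusted p was 0.0614 without the low-count filter and 0.0636 with the Control counts thinned to the depth of *Eya1*cKO. Its paralogue *Ptprn2* had 0, 25, 25 and 19 counts in the same order of libraries, with a log2 fold change of 1.65 (SE 1.24, adjusted p = 0.41). That value rests on the Control libraries, since it was 0.69 without Control 1 and 7.78 without Control 2, when the only Control library left had 0 counts and the value depends on the prior count of the fit.

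The synapsins coat synaptic vesicles and tether them to actin. *Syn1*, whose promoter is shown above, had 15 and 55 counts in Control and 153 and 107 in *Eya1*cKO, or 0.949 ± 0.735 against 6.44 ± 0.475 CPM. Its log2 fold change of 2.74 (SE 0.73) fell short of the threshold, with an adjusted p of 0.0623, and it ran from 2.12 to 3.88 with each library left out in turn. *Syn3*, with 242 and 191 counts against 323 and 190, was at 6.02 ± 1.29 and 12.6 ± 2.45 CPM (log2 fold change 1.09, adjusted p = 0.147), although 14.1% of its exonic length is shared with *Timp3* on the other strand. The groups overlapped for *Syn2*, with 31 and 36 counts in Control against 21 in *Eya1*cKO 1 but 77 in *Eya1*cKO 2. *Syp* encodes synaptophysin, the most widely used marker of synaptic vesicles. It had 46 and 73 counts in Control and 183 and 132 in *Eya1*cKO, which is 1.63 ± 0.447 against 7.81 ± 0.406 CPM, and its log2 fold change was 2.25 (SE 0.60, adjusted p = 0.0624). Of its exonic length, 16.8% is shared with a gene on the opposite strand.

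The remaining vesicle genes were *Snap91* and the SV2 family. *Snap91*, encoding the clathrin adaptor AP180, which retrieves vesicle membrane, was the most abundant of the group in Control. It had 1224 and 1277 counts in Control and 633 and 342 in *Eya1*cKO, or 34.6 ± 0.67 against 23.8 ± 6.02 CPM, with both *Eya1*cKO libraries below both Control libraries (log2 fold change -0.51, SE 0.24, adjusted p = 0.214). The SV2 glycoproteins are carried by synaptic vesicles and granules alike, and their libraries overlapped. *Sv2a* had 441 and 407 counts in Control and 521 and 145 in *Eya1*cKO (log2 fold change 0.49). Counts of *Sv2b* were 149 and 160 against 118 and 25 (log2 fold change -0.26), and those of *Sv2c* were 37 and 74 against 82 and 18 (0.70). In all 3, *Eya1*cKO 1 was the highest of the 4 libraries in CPM and *Eya1*cKO 2 the lowest, and the adjusted p ranged from 0.529 to 0.837.

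**Figure D3:**
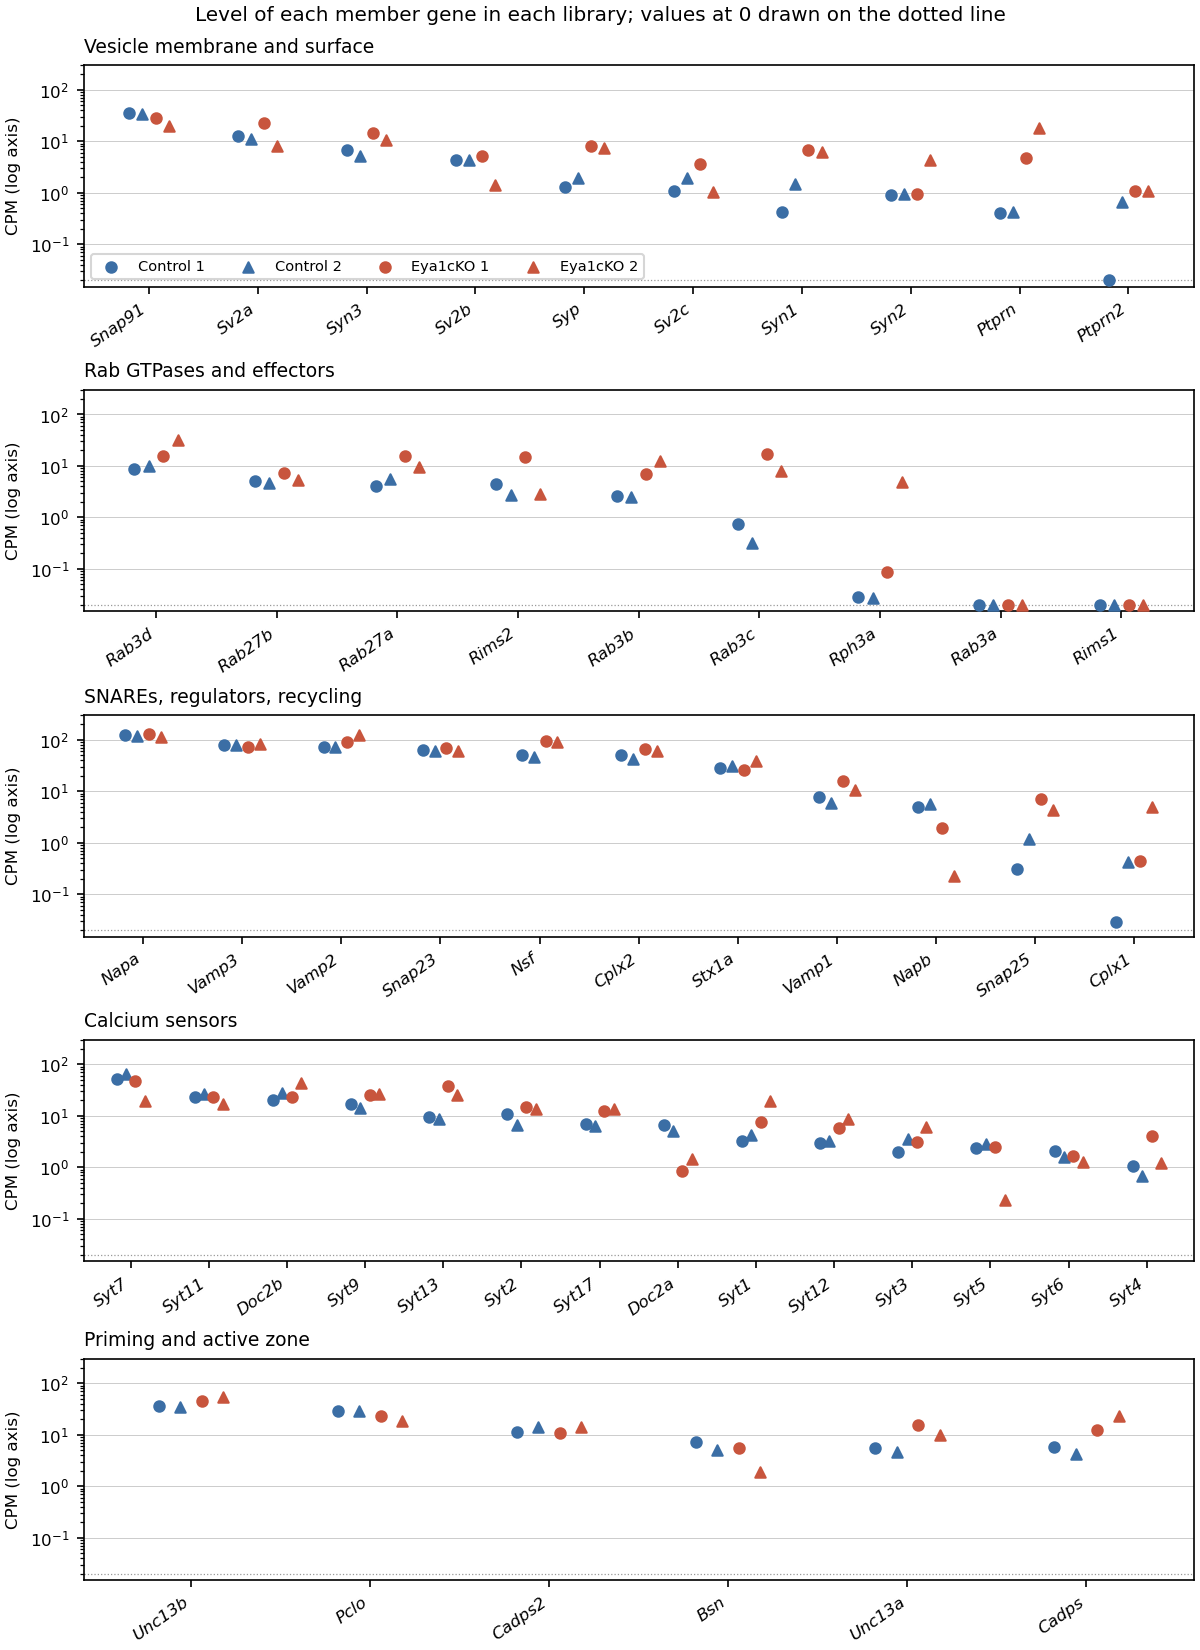
Level in CPM (log axis) of each of the 50 genes in each library, 1 panel per role group, genes ordered by their mean in Control; circles are library 1 and triangles library 2 of Control (blue) and *Eya1*cKO (red), and a value of 0 is drawn on the dotted line. *Rab3a* and *Rims1* are at 0 in all libraries, and the 4 libraries lie close together for the genes at the left of the SNARE panel, such as *Napa* and *Vamp3*.

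Of the Rab GTPases and their effectors, 6 of 9 genes could be tested. *Rab3c* (chr13:110054187-110280996, minus strand), 1 of the Rab3 GTPases that hold vesicles at the release site, had 26 and 12 counts in Control and 385 and 138 in *Eya1*cKO. The level rose from 0.533 ± 0.3 to 12.5 ± 6.49 CPM, with a log2 fold change of 4.62 (SE 0.80, adjusted p = 0.0141 in edgeR), or 24.5-fold. With single libraries left out the log2 fold change ran from 3.88 to 5.30. *Rab3c* needed an *Eya1*cKO library to pass the low-count filter, so whether it was tested depended on the group in which it was high. The gene was called in each of the 8 other settings run on all libraries, among them the fit without this filter (adjusted p = 0.0277 in edgeR). *Rab3a*, the main Rab3 protein of brain synapses, was at 0 counts in all 4 libraries. The counts alone do not tell a gene without transcripts from one on which no read could be counted, and this holds for *Rims1* as well.

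In the other Rab3 and Rab27 genes the *Eya1*cKO libraries also lay above Control, without a call. *Rab3b*, found in neurons and endocrine cells, had 92 and 93 counts in Control and 158 and 216 in *Eya1*cKO (2.56 ± 0.107 against 9.65 ± 3.76 CPM, log2 fold change 1.87, SE 0.58, adjusted p = 0.093). *Rab3d*, known from exocrine secretion and the most abundant of the group in Control, had 299 and 373 counts against 359 and 566 (9.26 ± 0.989 and 24.1 ± 11.6 CPM, log2 fold change 1.32, SE 0.42, adjusted p = 0.0999). For *Rab27a*, which docks granules and lysosome-related organelles, 145 and 210 counts stood against 350 and 171 (4.88 ± 1.03 and 12.6 ± 4.06 CPM, log2 fold change 1.40, SE 0.46, adjusted p = 0.106). *Rab27b* was nearer to equal, at 179 and 175 counts against 168 and 95 and a log2 fold change of 0.42 (SE 0.51, adjusted p = 0.629).

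The effectors *Rims2* and *Rph3a* were highest in a single library. *Rims2*, an active zone scaffold that binds Rab3, had 159 and 100 counts in Control against 342 in *Eya1*cKO 1 but 51 in *Eya1*cKO 2, so the groups overlapped (log2 fold change 1.44, adjusted p = 0.257). *Rph3a*, rabphilin, had 1 and 1 counts in Control against 2 in *Eya1*cKO 1 but 85 in *Eya1*cKO 2. It was above the limit of detection in that 1 library alone and did not pass the filter. Without the filter its adjusted p was 0.341 in edgeR, and DESeq2's Wald test gave 0.0157. *Rims1*, the paralogue of *Rims2*, was at 0 in all libraries.

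The SNARE proteins and the factors that regulate and recycle them included the most abundant of the 50 genes. *Nsf* (chr11:103821782-103954056, minus strand), the ATPase that pulls SNARE complexes apart after fusion, had 1757 and 1720 counts in Control and 2168 and 1554 in *Eya1*cKO. This was 48.1 ± 3.1 against 92.3 ± 5.2 CPM, and the rise of 1.93-fold had a log2 fold change of 0.95 with an SE of 0.14 (adjusted p = 0.0102 in edgeR). It was the call with the smallest change and the smallest standard error of the 4. Adaptor proteins, the SNAPs, load NSF onto these complexes. *Napa*, alpha-SNAP, was the most abundant gene of the group, with 4270 and 4498 counts against 2935 and 1965, which is 121 ± 1.52 and 121 ± 12.6 CPM and a log2 fold change of 0.00 (SE 0.12, adjusted p = 0.984). *Napb*, beta-SNAP of the brain, had 169 and 214 counts in Control and 43 and 4 in *Eya1*cKO, or 5.28 ± 0.619 against 1.07 ± 1.18 CPM. Both *Eya1*cKO libraries were below Control but 8.35-fold apart, and the log2 fold change of -2.17 (SE 0.82) had an adjusted p of 0.134.

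*Snap25* and *Snap23* encode the plasma membrane SNARE of neurons and endocrine cells and its counterpart in most other cells. *Snap25* had 11 and 45 counts in Control and 157 and 74 in *Eya1*cKO (0.758 ± 0.627 against 5.58 ± 1.93 CPM, log2 fold change 2.89, SE 0.81, adjusted p = 0.0693). The log2 fold change was 4.15 without Control 2 and 2.23 without Control 1. *Snap23* had 2224 and 2297 counts against 1568 and 1051, which was 62.5 ± 1.66 and 64.7 ± 6.7 CPM with overlapping libraries (log2 fold change 0.06, SE 0.15, adjusted p = 0.836). Per kilobase of exon, a measure on which genes can be set side by side, the Control level of *Snap23* was 14.6 CPM and that of *Snap25* was 0.112 CPM. In *Eya1*cKO the same levels were 15.1 and 0.822 CPM. The partner SNARE *Stx1a*, syntaxin 1A, had 964 and 1177 counts against 579 and 677, and its libraries overlapped (log2 fold change 0.09, adjusted p = 0.858).

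The synaptobrevins are the SNAREs on the vesicle. *Vamp2*, the main one of neurons and endocrine cells, had 2485 and 2678 counts in Control and 2057 and 2153 in *Eya1*cKO, that is 71.3 ± 0.253 against 107 ± 22.4 CPM (log2 fold change 0.57, SE 0.16, adjusted p = 0.079). *Vamp1* had 266 and 225 counts against 357 and 182 (6.81 ± 1.14 and 13.1 ± 3.84 CPM, log2 fold change 0.98, SE 0.42, adjusted p = 0.179). *Vamp3*, cellubrevin, which is found in most tissues, was at 80.1 ± 0.116 and 76.2 ± 7.26 CPM from 2793, 3001, 1606 and 1427 counts (log2 fold change -0.08, SE 0.14, adjusted p = 0.744). Thus *Vamp1* and *Vamp2* had both *Eya1*cKO libraries above Control and *Vamp3* did not.

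Complexins clamp the assembled SNARE complex until calcium arrives. *Cplx2*, with 1750 and 1592 counts in Control and 1493 and 1041 in *Eya1*cKO, was the abundant one at 46.3 ± 5.37 against 62.7 ± 4.76 CPM (log2 fold change 0.45, SE 0.17, adjusted p = 0.139). *Cplx1* had 1 and 16 counts in Control against 10 in *Eya1*cKO 1 but 85 in *Eya1*cKO 2. Its log2 fold change of 3.31 had an SE of 1.42 (adjusted p = 0.164) and ran from 0.89 to 6.13 with each library left out in turn.

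Among the calcium sensors, 14 genes were tested and 1 was called (7.14%, against 9.56% of all genes). *Syt13* (chr2:92915098-92956058, plus strand), an atypical synaptotagmin that does not bind calcium in the usual way, had 329 and 321 counts in Control and 851 and 441 in *Eya1*cKO. The level rose from 9.0 ± 0.6 to 31.4 ± 8.85 CPM, with a log2 fold change of 1.83 (SE 0.32, adjusted p = 0.0178 in edgeR), or 3.57-fold. *Syt1*, the sensor of fast release at synapses, had 114 and 160 counts against 172 and 335, which is 3.77 ± 0.713 and 13.4 ± 8.12 CPM (log2 fold change 1.74, SE 0.60, adjusted p = 0.114). *Syt2*, the other fast sensor, whose promoter is shown above, had 384 and 249 counts against 334 and 241 (8.82 ± 3.07 and 14.3 ± 0.738 CPM, log2 fold change 0.71, adjusted p = 0.292). *Syt9*, a sensor of the same family group, had 602 and 541 counts against 570 and 459, with closely spaced libraries at 15.8 ± 1.97 and 25.7 ± 0.665 CPM (log2 fold change 0.70, SE 0.26, adjusted p = 0.139). Each of these 3 sensors had its *Eya1*cKO libraries above its Control libraries, and none was called by edgeR on all libraries.

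*Syt7*, a sensor of slow release and of granule and lysosome fusion, was the most abundant of the group in Control. It had 1831 and 2384 counts in Control and 1080 and 334 in *Eya1*cKO, or 58.1 ± 7.94 against 33.4 ± 20.3 CPM, with both *Eya1*cKO libraries below Control (log2 fold change -0.74, SE 0.33, adjusted p = 0.195). It was -1.62 and called lower without *Eya1*cKO 1 (adjusted p = 5.8e-06 in edgeR) and -0.30 without *Eya1*cKO 2. *Doc2a*, a high-affinity sensor linked to spontaneous release, had 235 and 190 counts in Control and 19 and 26 in *Eya1*cKO, which is 5.9 ± 1.17 against 1.16 ± 0.453 CPM. Its log2 fold change was -2.38 (SE 0.73, adjusted p = 0.0874 in edgeR), and it was called lower with at least 10 counts required in every library and by DESeq2. Of its exonic length 39.4% is shared with *Ino80e* on the opposite strand, so its counts are uncertain. Its paralogue *Doc2b* had 707 and 1063 counts against 523 and 770, with overlapping libraries (log2 fold change 0.41, adjusted p = 0.474).

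None of the remaining synaptotagmins was called. *Syt12*, which does not bind calcium, had 106 and 122 counts against 131 and 152 (log2 fold change 1.16, SE 0.55, adjusted p = 0.216, with 17.2% of its exons shared with an opposite gene). *Syt17* had 243 and 236 counts against 283 and 234 (log2 fold change 0.96, SE 0.39, adjusted p = 0.159), and *Syt4*, a sensor-like protein of dense-core granules, had 37 and 25 against 91 and 21 (1.70, SE 0.86, adjusted p = 0.242, with 14.5% shared). These 3 had both *Eya1*cKO libraries above Control. The libraries overlapped for *Syt3* (69, 133, 71 and 105 counts), *Syt5* (83, 106, 56 and 4), *Syt6* (73, 60, 38 and 22) and *Syt11* (798, 993, 530 and 299), whose log2 fold changes ran from -0.80 for *Syt5* to 0.65 for *Syt3*.

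Of the 6 priming and active zone genes, none was called in either direction, where 9.56% of all genes tested were called. An unadjusted p under 0.05 in edgeR was reached by 3 of them (50%, against 28.8% of all genes). *Cadps*, CAPS1, which primes dense-core granules, came nearest, with 200 and 157 counts in Control and 286 and 403 in *Eya1*cKO. This was 4.96 ± 1.08 against 17.8 ± 7.29 CPM, a log2 fold change of 1.80 (SE 0.47, adjusted p = 0.0599). Its paralogue *Cadps2* had 402 and 530 counts against 249 and 253, with overlapping libraries and a log2 fold change of -0.04 (SE 0.36, adjusted p = 0.957). *Unc13a*, Munc13-1 of brain synapses, had 195 and 173 counts against 346 and 171 (5.1 ± 0.682 and 12.5 ± 3.93 CPM, log2 fold change 1.34, SE 0.45, adjusted p = 0.11). *Unc13b*, Munc13-2, was the most abundant of the group, with 1275 and 1294 counts against 1019 and 974 (35.5 ± 1.38 and 50.3 ± 7.37 CPM, log2 fold change 0.49, SE 0.19, adjusted p = 0.145). The giant scaffold proteins of the active zone are piccolo and bassoon. *Pclo* had 1026 and 1077 counts against 525 and 333, with both *Eya1*cKO libraries below Control (log2 fold change -0.45, SE 0.24, adjusted p = 0.27), and *Bsn* had 251 and 190 against 128 and 33, with overlapping libraries (log2 fold change -0.61, adjusted p = 0.571).

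Per kilobase of exon, the Control levels of the genes with more than 3 counts in a Control library ran from 32.0 CPM for *Napa* to 0.0388 CPM for *Ptprn2*. The highest after *Napa* were *Vamp3* at 27.7, *Vamp2* at 18.7, *Snap23* at 14.6, *Stx1a* at 11.1 and *Cplx2* at 9.4 CPM per kilobase, all of them SNAREs or their regulators. In *Eya1*cKO *Vamp2* (28.1 CPM per kilobase) stood between *Napa* (31.9) and *Vamp3* (26.4). At the lower end were *Snap25* at 0.112, *Cplx1* at 0.104, *Ptprn* at 0.0975 and *Rab3c* at 0.0442 CPM per kilobase. In *Eya1*cKO, *Ptprn* reached 2.71 and *Rab3c* 1.03 CPM per kilobase.

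**Figure D4:**
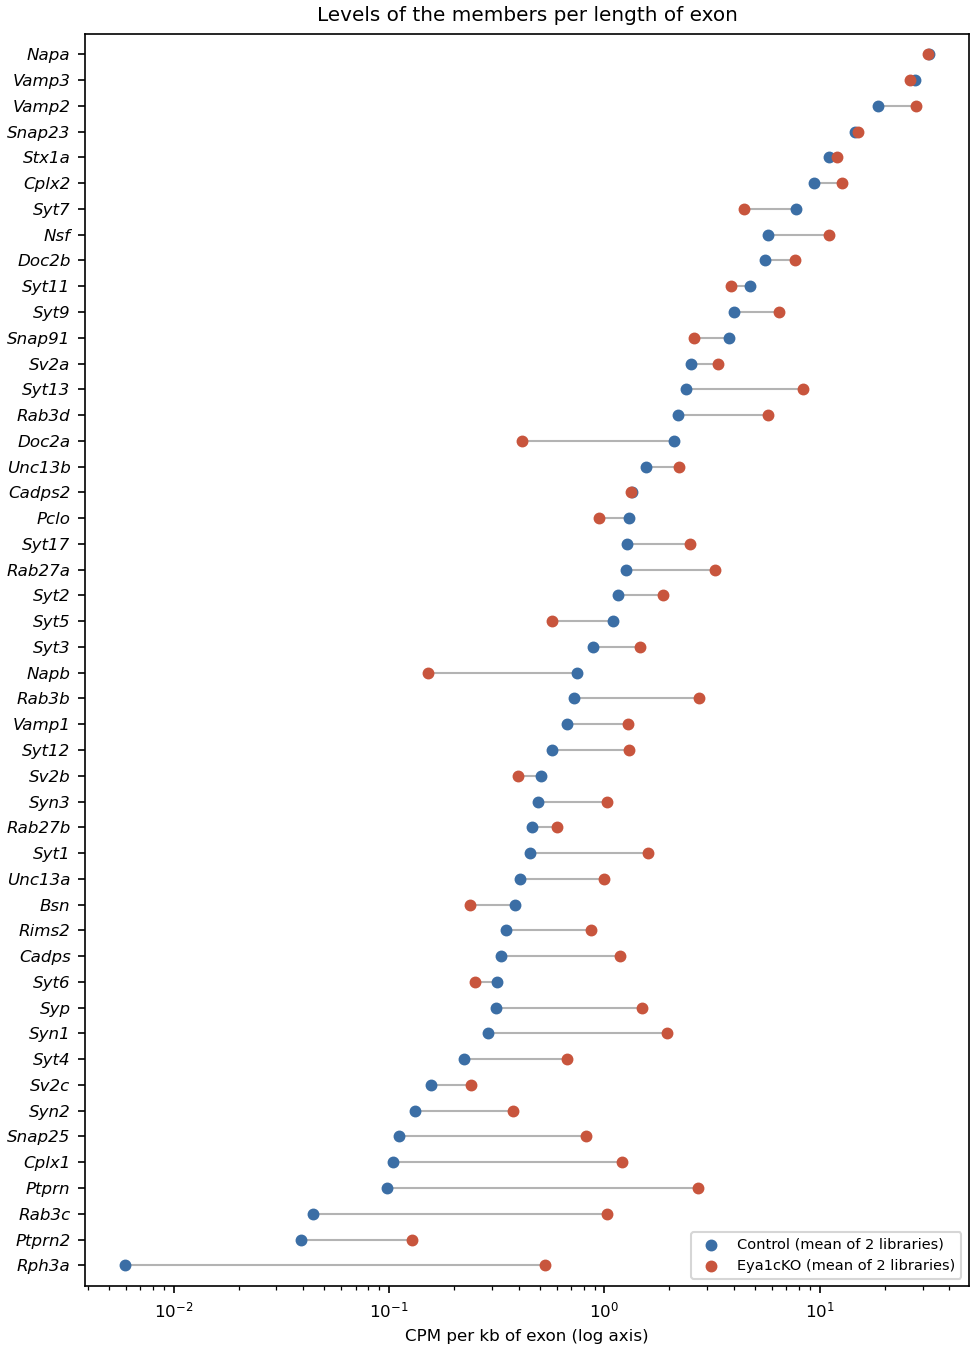
Mean level per kilobase of exon (log axis) of the 48 genes with any count, in Control (blue) and *Eya1*cKO (red), n = 2 libraries each, ordered by the level in Control; grey lines join the means of a gene. The points nearly coincide for the most abundant genes, such as *Napa*, *Vamp3* and *Snap23*, and lie farthest apart at the bottom, for *Ptprn*, *Rab3c* and *Rph3a*.

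Other genes of the release machinery were counted in the same test. Of 68 further genes listed (other syntaxins, synaptotagmins and synaptotagmin-like proteins, Munc18 proteins, active zone proteins, vesicular transporters and endocytic genes), 59 were tested, with 6 called higher and 2 lower, or 13.6% against 9.56% of all genes, and a median log2 fold change of 0.38 against 0.02. Among the genes called higher, the largest changes were those of *Slc17a8*, the vesicular glutamate transporter VGLUT3, with 19 and 4 counts in Control and 169 and 104 in *Eya1*cKO, which passed the filter through its *Eya1*cKO libraries (log2 fold change 4.40, SE 0.86, adjusted p = 0.0178), of *Sytl4*, granuphilin, a Rab27 effector, with 131 and 184 against 573 and 914 (3.10, SE 0.49, adjusted p = 0.0122), and of *Rimbp2*, an active zone protein, with 39 and 21 against 174 and 96 (3.01, SE 0.72, adjusted p = 0.0448). The genes called lower were *Sypl2*, a synaptophysin-like protein of muscle, with 345 and 417 counts against 0 and 28 (log2 fold change -3.91, SE 0.90, adjusted p = 0.0335), and *Amph*, amphiphysin, which acts in vesicle retrieval, with 983 and 1073 against 274 and 82 (-1.68, SE 0.38, adjusted p = 0.0387). The exocyst, the complex that tethers vesicles in constitutive secretion, served as a comparison outside regulated release. None of its 9 subunits was called in edgeR's test, 2 (22.2%, against 28.8% of all genes) had an unadjusted p under 0.05, their log2 fold changes had a median of 0.05, and the sum of their levels was 534 and 534 CPM in Control and 526 and 541 CPM in *Eya1*cKO.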

How the data were processed

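The authors deposited raw read counts per gene, 1 value for each of 52636 Ensembl gene identifiers and library, with no normalization. According to the study's methods, single-end reads from a strand-specific kit were aligned to mm10 with HISAT2 and counted with HTSeq on Ensembl annotation, and DESeq2 was used by the authors for testing. The strand setting of the counting is not given in the sources used here. The labels give 6 kidneys per genotype from 4 females, and the methods give other numbers for the pooled material. Gene totals were 35411905 and 37999342 counts in Control and 22239293 and 17457452 in *Eya1*cKO. Reads on no gene were 13.9% and 12.9% in Control and 22.7% and 20.9% in *Eya1*cKO.

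The analysis used edgeR 4.0.16 under R 4.3.3, with filterByExpr (minimum count 10), TMM scaling, and glmQLFit and glmQLFTest (legacy = FALSE) for genotype alone. P-values were adjusted by the Benjamini-Hochberg method across all 19041 genes that were tested, and a gene was called at an adjusted p under 0.05. CPM are counts over the library totals as scaled by TMM. The standard error is the absolute log2 fold change divided by the square root of F. Exon lengths and gene coordinates were taken from GENCODE M21 (GRCm38, the same build as mm10, but not the annotation release counted on), and promoters from RefSeq. The test was checked on simulated counts. Alternatives were DESeq2 size factors, library totals, 2 other filters, DESeq2 1.42.0, the legacy method, a replicate block, thinned Control counts and each library left out. The genes and lists were chosen with earlier results of these data known, and the RE1 core with mismatches was added after seeing the data. Every gene of the module is named. Values were given for genes called, for those with at least 20 counts in a library and groups that did not overlap, and for the most abundant of each role. With 2 libraries per genotype, no library could be tested as an outlier.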

Additional observations from a re-analysis of the deposited data

How the results depend on the processing

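The number of vesicle release genes called higher, 4 by edgeR's quasi-likelihood test, was 8 when at least 10 counts were required in every library, 13 with DESeq2's Wald test and 2 (*Ptprn* and *Rab3c*) with the replicate block. When single libraries were left out it ran from 0 to 21. The number called lower, 0, became 1 (*Doc2a*) with at least 10 counts in every library and 1 with DESeq2, and ran from 0 to 7 with a library left out. Over all genes, 1820 calls became 1055 without the low-count filter, 2243 with at least 10 counts in every library, 3102 with DESeq2, 1096 with the legacy method, 1172 with thinned Control counts and 621 with the replicate block, and ran from 23 to 7925 with a library left out. The replicate numbers did not pair the samples: the deviations of Control 1 and *Eya1*cKO 1 from their group means had a correlation of 0.0062 over genes. For single genes and settings on all libraries, 353 log2 fold changes stayed on their side of the threshold with no change of sign beyond their standard error, 14 passed it newly and 4 lost it (*Ptprn* without the filter and with thinned counts, *Nsf* and *Syt13* with the block). With a library left out the numbers were 132, 41 and 8, and 7 values, below the threshold in both fits, changed sign and moved by more than their standard error. None of the 4 calls changed direction in any of these settings. The median log2 fold change over the genes was 0.70, and 0.69 without the filter. Whole windows held the left part of RE1 4 times, and the 250 bases before the start 2 times. The causes of these shifts were not tested. Values near 3 counts, such as those of *Rph3a* and *Cplx1* in Control 1, are limited by counting error.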
